A study of Homo sapiens with 4 samples.

Results

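Of the 60048 genes in the deposited table of nascent RNA, 66 are replication-dependent histone genes, the genes that supply histone protein for new chromatin when DNA is copied. The rule uses only the table's annotation: type protein-coding, chromosome 6 or 1, and a symbol starting with H1-1 to H1-6, H2AC, H2BC, H3C or H4C. The 66 comprised 6 H1, 16 H2A, 17 H2B, 13 H3 and 14 H4 genes, 55 of them on chromosome 6 and 11 on chromosome 1. The assay was EU-seq, in which RNA made while cells take up 5-ethynyl uridine (EU) is captured and sequenced, here after 20 min of labelling. All 4 libraries came from HCT116, a human colorectal carcinoma line, of genotype RAD21-mAC, in which the cohesin subunit RAD21 carries a degron tag that auxin targets for degradation. The 2 control libraries were from DMSO-treated cells, and the 2 auxin libraries from cells kept for 3 h in 0.5 mM indole-3-acetic acid (auxin) so that RAD21 would be lost. Whether the line is a single clone, and which auxin receptor it carries, is not given in the sources used here. The comparison asks whether transcription of these genes differed after the cohesin subunit was depleted.

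Replication-dependent histone genes lie in clusters, carry no introns in their main transcripts and make messages that end in a stem-loop in place of a poly(A) tail. Their transcription and message stability rise when cells enter S phase, and the coactivator NPAT, at a nuclear structure called the histone locus body, drives them. H2A, H2B, H3 and H4 form the core of the nucleosome, and H1 binds the DNA that enters and leaves it.

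The low values in each library were whole multiples of 1 step, and the libraries held from 68565171 to 92295763 steps. A step was taken as 1 read, but more genes stood at 2 steps (1573 to 1761 per library) than at 1 (706 to 759), so it may be less than an independent read, and counts of steps may overstate the depth. Values are given here as a scaled signal: the deposited value divided by a trimmed mean of M-values (TMM) factor, which lay between 0.816 and 1.21. This scaling removes any change shared by all genes. Epithelial markers differed in level, with KRT8, a keratin, at 18994 to 25008 and EPCAM, an epithelial surface protein, at 4515 to 6076. Of the same list, CDX2 was at 1211 to 2195, VIL1 at 683 to 850 and CDX1 at only 6.74 to 17. The 6 tested of 8 markers of other cell types summed to 1189 and 1392 in the controls and 1579 and 1793 with auxin. COL1A1 was the highest in each library, and CD3E, of T cells and not tested, stood at or below 6.14. Signal of the RAD21 gene, whose product the degron removes at the protein, was 5154 and 7190 in the controls and 5893 and 6264 with auxin, so it checks nothing about the depletion.

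Most histone genes gave ample nascent signal, and a minority gave little or none. Testing required a value of 10 or more in at least 2 libraries, which 48 of the 66 genes met: 3 of the H1 genes, 13 of H2A, 12 of H2B, 9 of H3 and 11 of H4. Of these, 47 had a mean over the 4 libraries of at least 50, resting on 28 to 2602 steps per library with a median of 781. The exception was the linker gene H1-1, at 24.6 and 2.05 in the controls and 16.1 and 4.49 with auxin. Of the 18 genes not tested, 10 were listed at 0 in all 4 libraries: H1-3, H2AC8, H2BC1, H2BC9, H3C7, H3C8, H3C11, H4C6, H4C7 and H4C13. The other 8, H1-5, H1-6, H2AC1, H2AC16, H2BC3, H2BC8, H2BC10 and H3C3, stayed at or below 9.21 in each library. A 0 allows up to 3 steps, which on the scaled signal is 2.54 and 3.07 in the controls and 2.68 and 3.37 with auxin (counting error only).

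**Figure D1:**
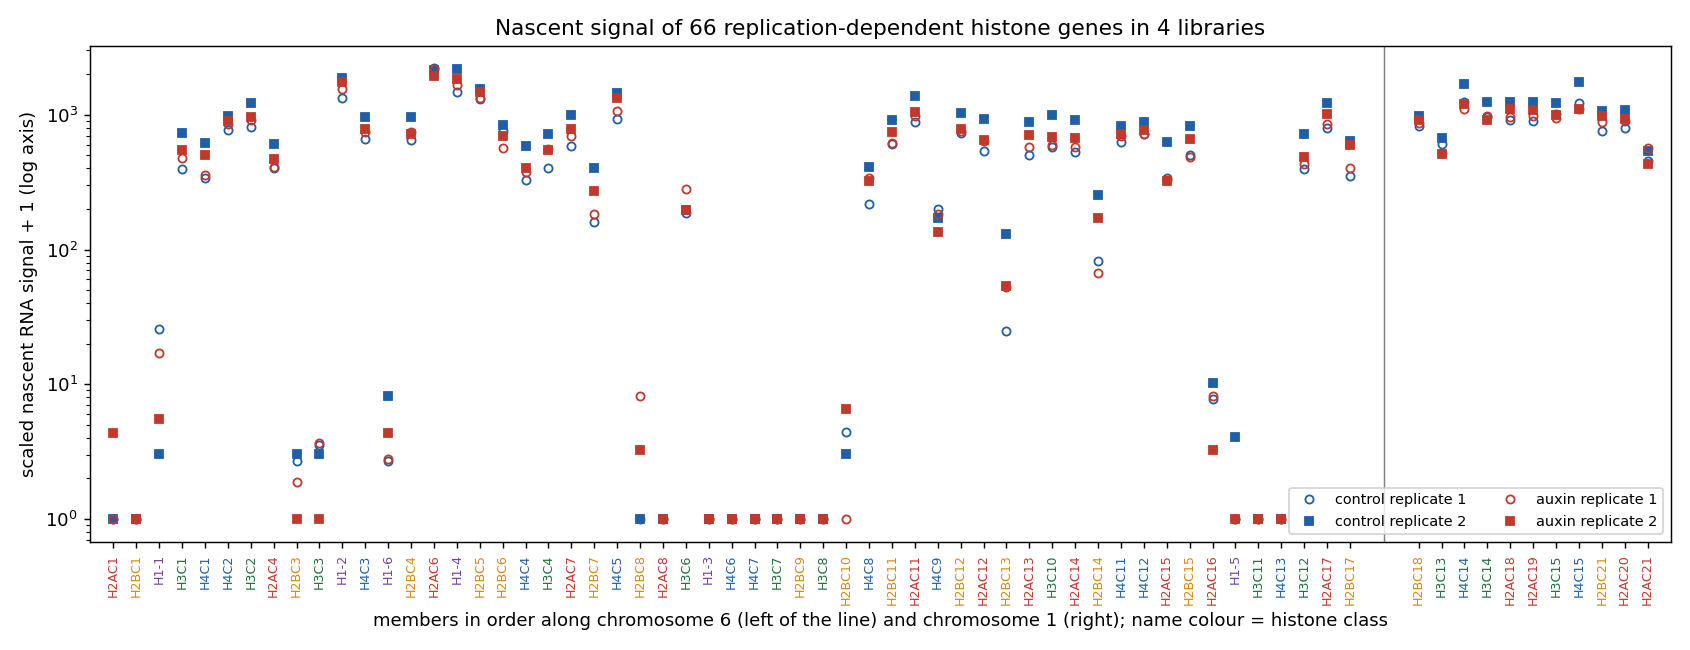
Scaled nascent RNA signal plus 1 on a log axis for each of the 66 histone genes in order along chromosomes 6 and 1, with control libraries in blue, auxin libraries in red, open circles for replicate 1 and filled squares for replicate 2. The 47 genes with a mean of at least 50 form the upper band (H2BC13, at 23.7 in control replicate 1, is its lowest point), the run of 6 genes from H1-3 to H3C8 lies at 0, and control replicate 2 is the highest point in 43 of the 47.

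Several of the genes at 0 were neighbours. A stretch of 39.6 kb in the main cluster, chr6:26233122-26272701 (GRCh38), held 8 consecutive genes of the table that were all listed at 0 in each library. They were the 6 members H1-3, H4C6, H4C7, H3C7, H2BC9 and H3C8 and the 2 histone pseudogenes H2AC9P and H2AC10P. Of the next members on either side, H3C6 was above 0 in each library. H2BC10, not tested, was at 3.39 and 2.05 in the controls and 0 and 5.61 with auxin. Before H3C6, H2AC8 was at 0 in each library, and H2BC8 at 0 in both controls and 7.14 and 2.25 with auxin. Values at or near 0 were therefore not confined to the stretch. H3C6, the H3 gene before the stretch, was at 186 and 196 in the controls and 278 and 197 with auxin, and H4C8, the gene beyond H2BC10, was at 216 and 406 against 339 and 323. How reads that match several near-identical histone genes were counted is not given in the sources used here, and its part in the 0 values was not tested.

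Signal per kb of annotated span could be compared among the 29 tested genes that span at most 1000 bases. H1 genes ranged from 15.6 to 2271 per kb with a median of 2236 (3 genes), and H4 genes from 1052 to 1998 with a median of 1889 (6 genes). H2A genes lay between 813 and 1994 with a median of 1495 (11 genes), and H3 genes between 985 and 1912 with a median of 1109 (5 genes). H2B genes lay between 132 and 1667 with a median of 685 (4 genes). The leading gene of each class was H1-4 at 2271 per kb, H4C12 at 1998, H2AC17 at 1994, H3C2 at 1912 and H2BC12 at 1667. These levels are means over all 4 libraries and were not tested against each other.

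To show what stands before genes at the top and at the bottom of this range, the 150 bases before the start of 3 leading genes are set beside those of 3 genes of the same classes listed at 0. Sequences are RefSeq's (GRCh38.p14), 5′ to 3′ on each gene's strand. Capitals mark 5 searched motifs, on either strand: TATAAA (the site of the general factor TBP), CCAAT (the site of NF-Y), ATTTGCAT (the H2B octamer, bound by POU2F1), GGTCCG (the core of the H4 element, bound by HINFP) and AAACACA (the H1 box).
H1-4 (leading H1 gene, chr6:26156179-26156328, plus strand): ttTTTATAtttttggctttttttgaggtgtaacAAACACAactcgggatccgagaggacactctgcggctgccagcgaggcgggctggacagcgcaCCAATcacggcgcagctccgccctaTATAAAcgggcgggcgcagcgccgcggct
H1-3 (listed at 0, chr6:26234988-26235137, minus strand): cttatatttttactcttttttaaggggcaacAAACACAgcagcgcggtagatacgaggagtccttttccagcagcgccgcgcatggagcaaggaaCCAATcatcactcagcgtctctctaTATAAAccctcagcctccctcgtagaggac
H3C2 (leading H3 gene, chr6:26032100-26032249, minus strand): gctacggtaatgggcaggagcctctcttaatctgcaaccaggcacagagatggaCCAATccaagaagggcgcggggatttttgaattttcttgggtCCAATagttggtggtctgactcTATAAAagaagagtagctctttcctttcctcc
H3C7 (listed at 0, chr6:26250636-26250785, minus strand): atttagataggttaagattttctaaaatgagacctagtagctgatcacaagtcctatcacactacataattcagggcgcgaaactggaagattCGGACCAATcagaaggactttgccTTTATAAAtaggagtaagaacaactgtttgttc
H4C12 (leading H4 gene, chr6:27831561-27831710, minus strand): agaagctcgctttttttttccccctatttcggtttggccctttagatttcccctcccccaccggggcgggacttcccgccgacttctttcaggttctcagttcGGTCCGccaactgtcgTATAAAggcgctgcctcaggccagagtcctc
H4C13 (listed at 0, chr6:27873535-27873684, minus strand): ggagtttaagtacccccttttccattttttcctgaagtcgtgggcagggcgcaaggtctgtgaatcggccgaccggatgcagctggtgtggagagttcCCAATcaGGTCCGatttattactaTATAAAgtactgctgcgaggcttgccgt

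All 6 windows held TATAAA, with its first base 28 to 32 bases before the start (in H3C7 it overlaps its own reverse complement, and CCAAT overlaps the reverse complement of GGTCCG). Both H1 windows held AAACACA and CCAAT at nearly the same places, although H1-4 had the highest level per kb and H1-3 was listed at 0. Both H4 windows held GGTCCG. Over windows of 300 bases (250 before and 50 after the start), 61 of the 66 genes had a RefSeq entry, and 42 of the 61 held TATAAA against 11.5% of all 35116 RefSeq promoters. CCAAT stood in 52 of the 61 (34.6% of all promoters): in all H1, H2A, H2B and H3 windows and in 3 of the 12 H4 windows. GGTCCG stood in 11 of the 12 H4 windows (11.3% of all) and AAACACA in 6 of the 6 H1 windows (5.64%). ATTTGCAT stood in 14 of the 17 H2B and 11 of the 15 H2A windows (1.77%). Windows of H2A and H2B genes that stand head to head overlap, so 1 site can count for both classes, as in H2AC14 and H2BC14. Among genes not tested, 16 of 17 windows held CCAAT and 9 held TATAAA, and among tested genes 36 and 33 of 44 did. A match describes letters only, and no test was made of its relation to signal.

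No change with auxin was detected in the histone genes when replicate numbers were left out of the fit. None of the 48 tested genes passed an adjusted p of 0.05 (limma, adjusted over 39464 genes), where 0.732% of all genes did (0.332% higher and 0.4% lower with auxin). None had an unadjusted p under 0.05 either, where 10.2% of all genes did, and edgeR on the recovered reads also gave 0 and 0 (0.73% and 10.3% of all genes). The smallest adjusted p was 0.544, for H4C15. Fold changes were small and mostly below 0: 38 of the 48 were negative and 10 positive, with a median log2 fold change of -0.09 against 0.01 over all genes tested. They ran from -0.51 (H2AC15) to 0.29 (H3C6). The sign of this median depended on the control library used, being -0.38 without control replicate 1 and 0.19 without control replicate 2. At an unadjusted p under 0.05, 11 genes passed without control replicate 1 (all lower, where 5.27% of all genes did), 2 without control replicate 2 and 1 without auxin replicate 2 (9.8% and 7.0% of all genes in either direction), and none of these passed the adjusted threshold. In bulk libraries, fewer cells in S phase and less histone RNA per cell cannot be told apart.

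The data bound the size of any change as well. The 95% interval of the log2 fold change held 0 for all 48 genes. It lay inside a change of 1 log2 unit in either direction for 43 of them, and inside 1.5-fold in either direction for 17. For the remaining genes it reached 1.5-fold or beyond in at least 1 direction. Shifts within the interval of a gene were not detectable here. The median standard error was 0.22. Both auxin libraries lay below both controls for 6 genes (19.6% of all genes did) and above both for 1 gene (18.6%), and the groups overlapped for 41. A missed threshold does not show that the groups were equal.

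**Figure D2:**
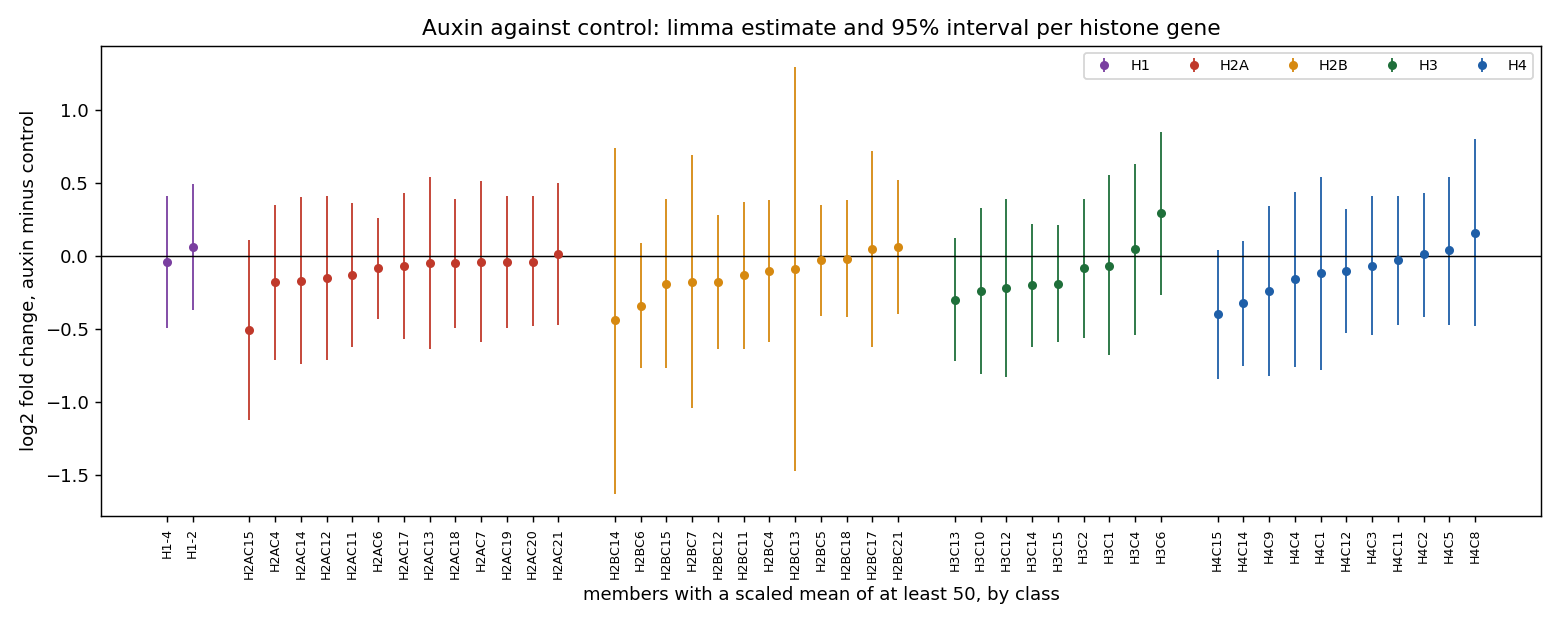
Log2 fold change, auxin minus control, for the 47 histone genes with a scaled mean of at least 50, grouped by class, with points for the limma estimate and lines for its 95% interval. Estimates run from -0.51 (H2AC15) to 0.29 (H3C6) and each interval holds 0.

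Among the linker histones, which compact the fibre between nucleosomes, H1-2 and H1-4 carried nearly all the signal. H1-4 was at 1467 and 2187 in the controls and 1663 and 1834 with auxin. H1-2 was at 1337 and 1885 in the controls and 1564 and 1753 with auxin. For both genes the auxin libraries lay between the controls, and the log2 fold changes were -0.04 (SE 0.20, adjusted p = 0.989) and 0.06 (SE 0.19, adjusted p = 0.979).

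The 13 tested H2A genes had a median log2 fold change of -0.07, with 12 below 0. H2AC15 had the lowest estimate, at 340 and 624 in the controls against 328 and 321 with auxin. The auxin values sat just under control replicate 1, and control replicate 2 stood apart from the other 3 libraries. Its estimate was -0.51 on the log2 scale (SE 0.28, adjusted p = 0.619), and -0.07 without control replicate 2 and -0.93 without control replicate 1. H2AC17, with the most signal per kb of this class, was at 791 and 1218 in the controls and 856 and 1020 with auxin, a log2 fold change of -0.07 (SE 0.23). H2AC21, on chromosome 1 and overlapping BOLA1, was at 449 and 541 against 570 and 433, and had the highest estimate of the class at 0.01 (SE 0.22). Here auxin replicate 1 was the highest library and auxin replicate 2 the lowest. H2AC6 had the highest mean signal of all 66 genes before any division by length, at 2205 and 2156 against 2195 and 1936, over an annotated span of 14972 bases.

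H2B genes had a median log2 fold change of -0.12 over 12 tested genes, 10 of them below 0. H2BC6 had the smallest p of the class, at 751 and 843 in the controls and 570 and 695 with auxin, with the groups apart and an estimate of -0.34 (SE 0.19, adjusted p = 0.644). Its annotated span of 12597 bases overlaps the transcript AL353759.1, and the values do not separate them. H2BC12, the leading compact H2B gene, was at 732 and 1036 against 756 and 777, a log2 fold change of -0.18 (SE 0.21). The lowest and the highest estimates of the class were -0.44 for H2BC14 (SE 0.53) and 0.06 for H2BC21 (SE 0.21). H2BC21 was at 751 and 1062 in the controls and 885 and 978 with auxin, and for both genes the groups overlapped.

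The 9 tested H3 genes had a median of -0.19, with 7 below 0. H3C13 was at 604 and 672 in the controls and 520 and 512 with auxin. The groups were apart, with an estimate of -0.30 (SE 0.19, adjusted p = 0.692). H3C2 was at 814 and 1215 against 917 and 961, a log2 fold change of -0.08 (SE 0.21), with both auxin libraries between the controls. H3C6, which borders the stretch at 0, gave the highest estimate of all members at 0.29 (SE 0.25, adjusted p = 0.83). Its auxin replicate 1 stood at 278, while the other 3 libraries lay between 186 and 197, and without it the estimate was 0.05.

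Of the 11 tested H4 genes, 8 were below 0 and the median was -0.10. H4C15 was at 1228 and 1741 in the controls and at 1109 and 1106 with auxin, or 1484 ± 363 against 1108 ± 2.21 (SD, n = 2 each). Both auxin libraries were below both controls, and the log2 fold change was -0.40 (SE 0.20, 95% interval -0.84 to 0.04), or -0.15 without control replicate 2 and -0.64 without control replicate 1. H4C8 had the highest estimate of the class, at 216 and 406 in the controls and 339 and 323 with auxin, a log2 fold change of 0.16 (SE 0.29). H4C12, the leading compact H4 gene, was at 718 and 887 against 721 and 767, a log2 fold change of -0.10 (SE 0.19). Both auxin libraries of H4C8 and of H4C12 lay between the controls.

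The chromosome 1 cluster holds duplicated genes that this counting may not separate. H4C14 and H4C15 had identical RefSeq promoter windows (100% of 300 bases), and H2AC18 and H2AC19 matched at 99.7% and H3C14 and H3C15 at 98.7%. Their signals were also close: H2AC18 was at 914 and 1236 in the controls and 961 and 1096 with auxin, and H2AC19 at 900 and 1249 against 972 and 1093. The value of each such gene is therefore uncertain, and each H4 gene of this duplication also overlaps its H3 neighbour on the other strand. Log2 fold changes were -0.32 for H4C14 and -0.40 for H4C15, and -0.20 for H3C14 and -0.19 for H3C15. All 11 chromosome 1 genes were tested, and their median was -0.05, against -0.09 over the 37 tested on chromosome 6.

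H2A and H2B genes often stand head to head, sharing the stretch between their starts. With starts on opposite strands under 500 bases apart, 11 such pairs were found, of which 9 had both genes tested and 2, H2AC1 with H2BC1 and H2AC8 with H2BC8, had neither. The H2A partner had the higher signal in 7 of the 9, though spans differed within some pairs. The fold changes of both partners had the same sign in 7 of the 9. The fold changes differed most in H2AC15 and H2BC15, by -0.32 on the log2 scale, where H2BC15 was at 505 and 820 in the controls and 482 and 661 with auxin. They differed least in H2AC11 and H2BC11, by 0.0, both at -0.13. H2AC11 was at 881 and 1370 in the controls and 971 and 1042 with auxin, and H2BC11 at 608 and 906 against 617 and 743.

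Of the compact pairs, 3 with unequal partners are printed, because the partners share 1 stretch of DNA yet gave different signal. H2AC13 had 10.4 times the mean signal of H2BC13, H2AC14 had 4.72 times that of H2BC14 and H2AC17 had 1.95 times that of H2BC17, with all these genes spanning between 467 and 503 bases. In a further compact pair, H2AC12 had 0.834 times the mean signal of H2BC12. That pair is not printed, and H2AC12 had no matched RefSeq promoter. Stretches run 5′ to 3′ on the plus strand from start to start (RefSeq, GRCh38.p14), with the same motifs in capitals.
H2BC13 to H2AC13 (chr6:27807930-27808172): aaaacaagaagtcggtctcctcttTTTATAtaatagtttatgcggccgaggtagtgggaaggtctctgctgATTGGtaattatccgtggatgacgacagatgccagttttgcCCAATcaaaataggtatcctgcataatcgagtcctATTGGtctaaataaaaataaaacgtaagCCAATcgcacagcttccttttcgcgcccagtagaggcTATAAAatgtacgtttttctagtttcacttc
H2AC14 to H2BC14 (chr6:27814778-27815021): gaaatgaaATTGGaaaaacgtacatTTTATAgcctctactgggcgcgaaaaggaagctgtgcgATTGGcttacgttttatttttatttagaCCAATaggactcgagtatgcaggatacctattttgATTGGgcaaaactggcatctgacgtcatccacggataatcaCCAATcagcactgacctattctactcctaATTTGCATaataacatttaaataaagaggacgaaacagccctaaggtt
H2AC17 to H2BC17 (chr6:27893186-27893424): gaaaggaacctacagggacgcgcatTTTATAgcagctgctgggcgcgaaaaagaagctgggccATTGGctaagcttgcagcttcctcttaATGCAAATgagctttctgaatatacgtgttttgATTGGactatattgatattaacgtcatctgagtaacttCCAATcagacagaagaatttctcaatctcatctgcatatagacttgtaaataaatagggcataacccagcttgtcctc
H2BC13 was at 23.7 and 129 in the controls and 51.8 and 52.8 with auxin, while its partner H2AC13 was at 498 and 886 against 578 and 711. H2BC14 was at 81.4 and 255 against 66 and 170, with H2AC14 at 531 and 920 against 572 and 674. In each of these 4 genes control replicate 2 was the highest library. CCAAT stood 4, 5 and 3 times in the 3 stretches, in the order printed. ATTTGCAT was found once beside H2BC14 and once, on the other strand, between H2AC17 and H2BC17, and not in the stretch of H2AC13.

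The largest difference among the histone genes lay between the control replicates and not between the groups. Summed over the 48 tested genes, the scaled signal was 32005 and 45477 in control replicates 1 and 2, and 34071 and 36809 in auxin replicates 1 and 2. Control replicate 2 exceeded replicate 1 in 45 of the 48 tested genes, by a median of 0.57 on the log2 scale (1.49-fold), which is the 88.0th percentile of the same difference over all genes tested, whose median was 0.00. Auxin replicate 2 exceeded replicate 1 in 36 of the 48, by a median of 0.10 (1.07-fold), where the median of all genes was 0.01. Among the 47 genes with a mean of at least 50, control replicate 1 was the lowest library for 35 and control replicate 2 the highest for 43, and both auxin libraries lay between the controls for 34. For 42 of the 47, the change with auxin was smaller in size than the difference between the controls. The first is a difference of means of 2 libraries and the second of single libraries, which vary more. Shares over all genes were not taken for these counts of the 47, so they do not set the histone genes apart. The 92 other tested protein-coding genes that span at most 1000 bases had medians of 0.18 between the controls and -0.03 between the auxin libraries. What set the control libraries apart was not tested.

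**Figure D3:**
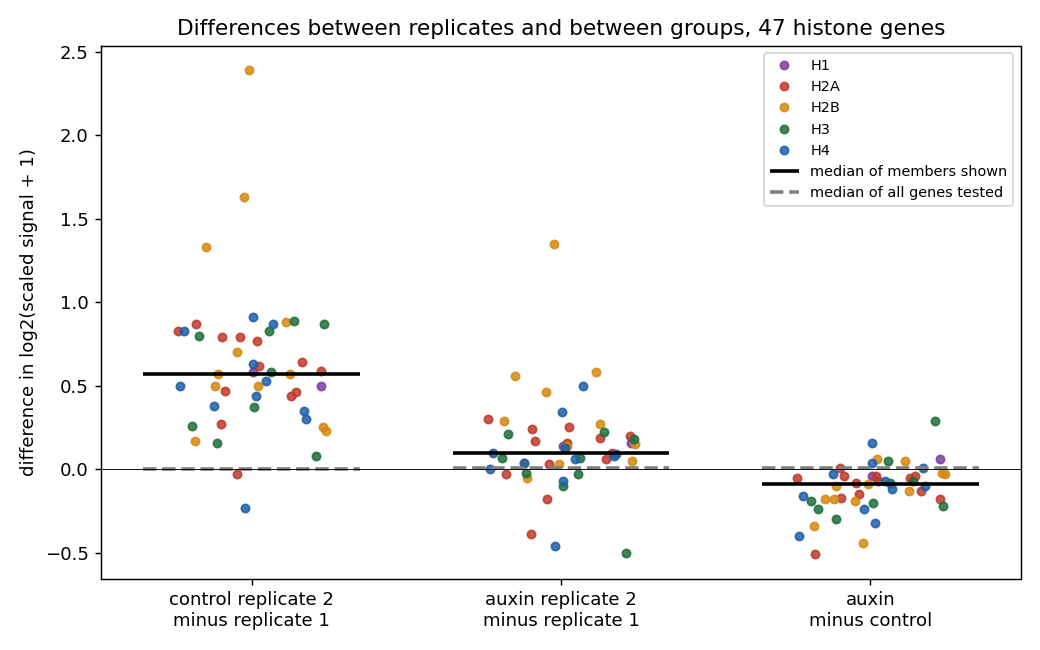
Differences in log2(scaled signal + 1) for the 47 histone genes with a scaled mean of at least 50: control replicate 2 minus replicate 1, auxin replicate 2 minus replicate 1, and auxin minus control. Points are genes coloured by class, black bars their medians (0.57, 0.10 and -0.09) and grey dashed bars the medians of all genes tested (0.00, 0.01 and 0.01).

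Lists of genes that act with the histone genes had medians from -0.64 to 0.13 (the lists were chosen with earlier results of these data known). The G1/S and DNA replication list, whose products start and run S phase, was below 0 in all 20 genes with a median log2 fold change of -0.64. Of the 20, 16 had an unadjusted p under 0.05 (limma) in the lower direction (5.47% of all genes). Both auxin libraries were below both controls for 17 of the 20 (19.6% of all genes). Only ORC1, a subunit of the complex that marks replication origins, passed the adjusted threshold, at 4364 and 4878 in the controls and 2293 and 2845 with auxin (log2 fold change -0.85, SE 0.16, adjusted p = 0.0425). That call was lost with library-total scaling, on the deposited scale, with no filter, and when any library but auxin replicate 2 was left out, with estimates between -0.69 and -0.92. Among fits of all 4 libraries without replicate numbers, a pseudocount of 10 gave the most calls, 3, all lower (0.454% of all genes). More genes of the list were called lower without auxin replicate 2, a fit that rests on a single auxin library. The unadjusted count was 4 on the deposited scale (1.28% of all genes). The median of the list was -0.82 without control replicate 1 or auxin replicate 2. It was -0.42 without control replicate 2 or auxin replicate 1, with 19 of the 20 genes below 0 in each case. Replicate 2 was the higher library for all 20 genes in both groups, by medians of 0.36 in the controls and 0.44 with auxin. The 15 G2/M genes, active before and during mitosis, had a median of 0.13 and a smallest p at CDC20, the mitotic activator of the anaphase-promoting complex (log2 fold change 0.20, adjusted p = 0.769). Their medians between replicates were 0.42 in the controls and 0.11 with auxin. The part of cell-cycle state in any of these values was not tested.

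The list for histone gene transcription and message processing, 21 genes, had a median of -0.14 with 20 below 0 and none called. Of the 21, 3 had an unadjusted p under 0.05 (limma), all lower (5.47% of all genes). NPAT, the coactivator of the histone genes, was at 3750 and 4112 in the controls and 2486 and 2923 with auxin, with the groups apart (log2 fold change -0.54, SE 0.15, adjusted p = 0.182). SLBP, which binds the stem-loop of histone messages, was at 11543 and 13024 against 8844 and 10151 (-0.37, SE 0.13, adjusted p = 0.298). CASP8AP2, a further component of the histone locus body, was at 7109 and 7679 against 5033 and 6605 (-0.36, SE 0.15, adjusted p = 0.449). The factors that read the printed motifs gave smaller estimates, with -0.06 for HINFP, -0.13 for POU2F1 and -0.06, -0.22 and 0.02 for the NF-Y subunits NFYA, NFYB and NFYC.

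Histone chaperones, which carry new histones to DNA, had a median of -0.12 over 17 genes, with none called. Of the 17, 6 had an unadjusted p under 0.05 (limma), all lower (5.47% of all genes). NASP, the chaperone that holds the free pool of H3 and H4, had the smallest p, at 10371 and 11829 in the controls and 6489 and 8581 with auxin (log2 fold change -0.57, SE 0.15, adjusted p = 0.161). Its estimate was -0.36 without auxin replicate 1 and -0.77 without auxin replicate 2. The others were CHAF1A and CHAF1B, subunits of the assembly factor CAF-1, at -0.60 and -0.42, RBBP4, its histone-binding subunit, at -0.40, the histone acetyltransferase HAT1 at -0.46 and the nucleosome assembly protein NAP1L1 at -0.37. The 11 histone variants listed as replication-independent had a median of 0.02, with none called. None had an unadjusted p under 0.05 (limma) either, where 10.2% of all genes did.

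**Figure D4:**
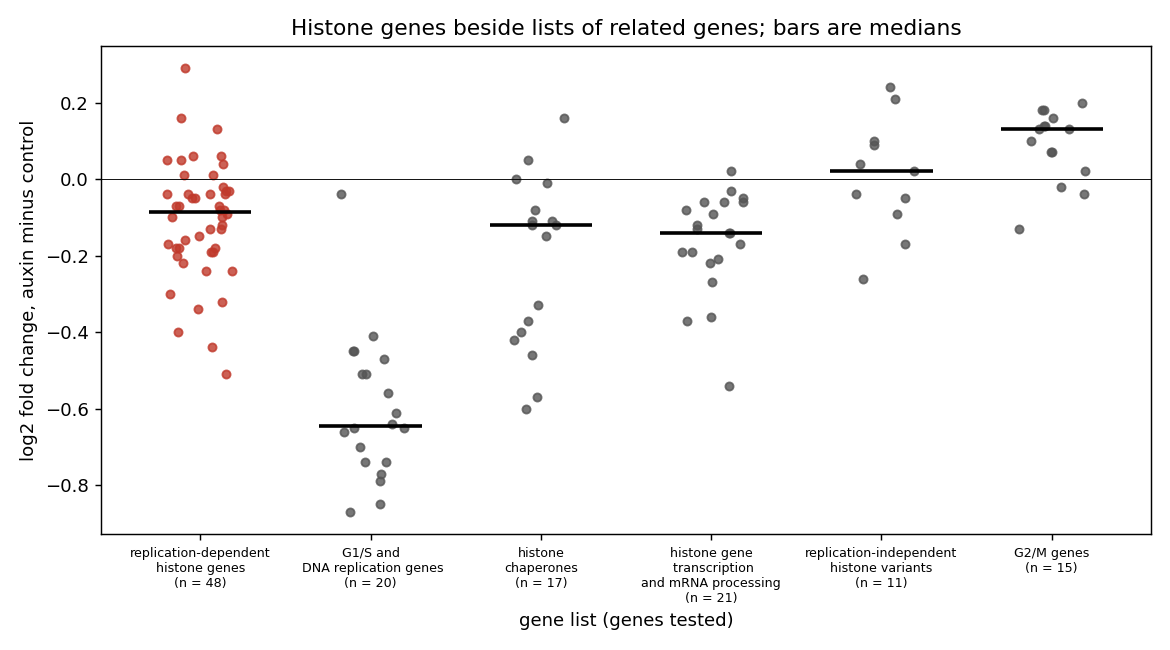
Log2 fold change, auxin minus control, for the tested genes of 6 lists, with 1 point per gene and black bars for the medians. The histone genes lie between -0.51 and 0.29 with a median of -0.09, and the G1/S and DNA replication genes between -0.87 and -0.04 with a median of -0.64.

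Protein-coding genes that are no members but lie between the first and the last member on chromosome 6 had a median on the other side of 0. Of 20, 18 were tested, with a median of 0.17, 12 above 0 and 6 below. AL031777.2, at -0.05, spans the members H3C4 and H2AC7 on the same strand, and the values do not separate them. None was called, and 3 had an unadjusted p under 0.05, all higher (4.75% of all genes): PRSS16, a thymic serine protease, the ubiquitin ligase TRIM38 and the butyrophilin BTN2A1. PRSS16 was at 742 and 770 in the controls and 1149 and 1094 with auxin (log2 fold change 0.57, SE 0.17, adjusted p = 0.225), TRIM38 at 1240 and 1375 against 1866 and 1771 (0.48, SE 0.16) and BTN2A1 at 2107 and 2141 against 2864 and 2623 (0.37, SE 0.15). Both auxin libraries were above both controls for 7 of the 18 (18.6% of all genes) and below both for 0 (19.6%). The controls of these genes differed by a median of 0.02, beside 0.63 for the histone genes of the same chromosome.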

How the data were processed

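Nascent RNA was measured in 2 control and 2 auxin libraries, with groups and replicate numbers from the sample titles. The name of the control replicate 2 column in the deposited table is misspelt, and the column was assigned by its replicate number, as the other column of that number names auxin. The authors deposited a signal per gene and library, with coordinates, span and type, and all its value columns were used (0 unused). Trimmomatic 0.39, Bowtie2 2.4.5, deepTools 3.5.1 and the builds hg38 and dm6 are named per the submitters' processing notes. The counting tool, the scaling of the signal, and the handling of strand and of reads matching several genes are not given in the sources used here. A log-scale test was used, as planned for a scaled signal, and not the count test set for raw counts.

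Within each library, 100% of deposited signal values up to 20 steps, and 63.7% to 84.0% of all values, were whole multiples of 1 step (within 0.1 step). The filter kept genes with a value of 10 or more (at the median library total) in 2 or more libraries and a summed value of 15 or more. Values were scaled by TMM (30% and 5% trimmed). The log2 of scaled value plus 1, which understates changes of low genes, was fitted with limma 3.58.1 (lmFit, eBayes with trend, R 4.3.3), and p-values were adjusted by Benjamini-Hochberg over 39464 genes at 0.05. As an alternative chosen after seeing the data, the recovered reads were tested with edgeR 4.0.16 (quasi-likelihood), which called 288 genes. Both were tested on simulated data. Other alternatives were scaling, filter, pseudocount, a replicate block, an adjusted p of 0.01 and leaving out each library.

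The labels do not say that replicates were separate cultures, so p-values measure only the spread between these samples. Members and lists were chosen with earlier results of these data known. Named genes were, per histone class among means of at least 50, the highest signal per kb, smallest p, largest rise and largest fall, the head-to-head pairs with the largest and smallest difference, and per list the smallest p and each call; genes outside this rule were chosen after their values were seen. A result under this rule is not reported here. Table starts count from 0 and are printed 1 higher, in GRCh38. Promoters are from RefSeq (GRCh38.p14): H4C1, H4C3, H2AC12, H3C11 and H3C12 were not matched, and motif counts use the windows around RefSeq starts. Python 3.11.15, pandas 2.3.3 and matplotlib 3.10.9 were used.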

Additional observations from a re-analysis of the deposited data

How the results depend on the processing

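The absence of called histone genes held under median-ratio scaling, library-total scaling, the deposited scale, no filter, a mean of at least 50, pseudocounts of 0.1 and 10, edgeR, an adjusted p of 0.01 and without each library in turn. With a replicate block, 2 histone genes were called lower, H4C15 (log2 fold change -0.40, adjusted p = 0.0231) and H2AC15 (-0.51, adjusted p = 0.0342), where 4273 genes of the table (10.8%, and 5.9% lower) were. The labels do not say what a replicate number marks: the differences between replicates 2 and 1 in the 2 groups correlated at r = 0.23 over all genes tested and r = 0.77 over the 48 histone genes (0.54 over the 47 with a mean of at least 50). With 2 pairs this does not settle whether same-numbered libraries share a source. The block also called 19 of the 20 G1/S genes, 7 of 17 chaperones (NASP among them) and 3 of 21 transcription and processing genes (NPAT among them) lower, and 3 of 18 chromosome 6 neighbours (PRSS16), 2 of 7 epithelial markers (CDH1) and 1 of 6 tested markers of other cell types (COL1A1) higher. Over the whole table, 289 genes were called, against 55 on the deposited scale, 82 at an adjusted p of 0.01 and 132 to 681 without 1 library; a lone library of a group was then assumed to vary like the other group. Without 1 library, medians ran from -0.25 to 0.25 for H1, -0.42 to 0.19 for H2A, -0.41 to 0.17 for H2B, -0.37 to 0.21 for H3 and -0.28 to 0.18 for H4. The sign turned without 1 library for H1-2 (-0.18 to 0.31), H1-4 (-0.32 to 0.25), H2AC11 (-0.44 to 0.19), H2AC17 (-0.37 to 0.24), H2AC21 (-0.18 to 0.21, and -0.01 on the deposited scale), H2BC11 (-0.41 to 0.15), H2BC12 (-0.42 to 0.07), H2BC14 (-1.25 to 0.38), H2BC15 (-0.53 to 0.16), H2BC21 (-0.18 to 0.31), H3C2 (-0.36 to 0.21), H4C8 (-0.28 to 0.61) and H4C12 (-0.25 to 0.05). It did not turn for H2AC15 (-0.93 to -0.07), H2BC6 (-0.48 to -0.19), H3C6 (0.05 to 0.54), H3C13 (-0.37 to -0.23) or H4C15 (-0.64 to -0.15), but the first 3 and the last moved by over 1.5 times. The cause was not tested. With 2 libraries a group, changes smaller than the interval of each gene were not detectable.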

Other observations

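Histone pseudogenes, copies annotated as making no protein, numbered 86, of which 34 were tested. Their median log2 fold change was 0.03, and none was called or had an unadjusted p under 0.05 (limma). H3P8, on chromosome 2, had the smallest p, at 7.63 and 3.07 in the controls and 25 and 10.1 with auxin (log2 fold change 1.52, SE 0.75, adjusted p = 0.545). Leaving out control replicate 2 gave 0.98, leaving out control replicate 1 gave 2.07, and a pseudocount of 10 gave 0.81. Control replicate 2 exceeded replicate 1 in 23 of the 34, by a median of 0.25.

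Of the 7 epithelial markers, 2 were above 0 and 5 below, with none called. CDH1, the adhesion protein E-cadherin, had the smallest p, at 11060 and 11199 in the controls and 16109 and 16554 with auxin (log2 fold change 0.55, SE 0.11, adjusted p = 0.0578), and was called with library-total scaling. Of the 8 markers of other cell types, 6 were tested and all lay above 0. COL1A1, a collagen chain, had the smallest p, at 577 and 732 in the controls and 893 and 998 with auxin (0.54, SE 0.20, adjusted p = 0.335).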
